A study of Mus musculus with 12 samples.

Results

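Genes of cholesterol synthesis, fatty acid synthesis and sterol control were followed in mouse lymph node cells that lacked or carried protein kinase D2 (PKD2) and were or were not exposed to antigen. The set was a list of 37 genes chosen by their roles, with earlier results of these data known: 17 enzymes of sterol synthesis, 6 genes of sterol control, 9 genes of fatty acid synthesis and 5 genes of cholesterol efflux and the liver X receptors (LXR). A gene was read from probe sets annotated to that symbol alone, and the probe set with the highest mean over the 12 arrays stood for it. On that rule 36 of the 37 genes were measured, among 18193 genes in all. Nr1h2, which encodes LXR beta, had no such probe set and is not analysed here.

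The arrays came from 4 groups with 3 arrays each, all from mice of the strain P14-TCR. The groups were PKD2 null cells with peptide, PKD2 null cells without it, wild type cells with peptide and wild type cells without it. P14 T cells carry a transgenic receptor for the viral peptide gp33-41, and PKD2 is a kinase that acts downstream of that receptor. Lymph node cell suspensions were cultured for 4 h with gp33-41 at 62.5 ng/ml or left without it, and each of the 3 null and 3 wild type mice gave 1 array of each kind. The labels name no cell sorting, no age or sex, and no construction of the null allele. Mouse numbers name mice within a genotype only.

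The label of the genotype was checked on Prkd2, which encodes PKD2. Its mean log2 signal was 5.48 in null cells with peptide and 6.00 in null cells without, against 8.33 in wild type cells with peptide and 10.17 in wild type cells without, and the genotypes did not overlap in either condition. Array medians lay between 4.66 and 4.72, and the correlation of log2 values between arrays of a group was at least 0.991. As whole lymph nodes, the samples showed CD8 T cell markers at a mean log2 signal of 10.73 to 11.21 over the 12 arrays (8 of 9 listed genes measured, all over a log2 signal of 5), and also B cell markers (9 of 10 measured, all over 5). The B cell marker level was 8.41 to 9.08 in null cells with peptide and 9.02 to 9.70 in null cells without, against 7.92 to 8.19 in wild type cells with peptide and 8.53 to 8.67 in wild type cells without. Adipocyte markers stayed at 3.88 to 4.15 on all arrays, and 1 of the 6 measured, Retn, averaged over 5; the defining marker Adipoq averaged 3.40. Myeloid markers averaged 6.97 to 7.45 over the 4 groups, markers of stroma and endothelium 4.50 to 4.74, and erythroid markers 4.09 to 5.15. In such bulk samples, fewer cells of a type and less RNA per cell cannot be told apart.

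Cholesterol is made from acetyl-CoA through mevalonate, squalene and lanosterol. The transcription factor SREBP2 drives most of the enzyme genes: SCAP escorts it out of the endoplasmic reticulum when sterols are low, and the INSIG proteins hold it back when sterols are high. SREBP1 acts in the same way mainly on fatty acid genes. Surplus cholesterol gives oxysterols that activate LXR, which raises the efflux pumps Abca1 and Abcg1, the ubiquitin ligase Mylip and the SREBP1 gene. Activated lymphocytes are known to use more sterol and lipid as they prepare to divide.

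Antigen raised most of the listed enzymes between isopentenyl diphosphate and the late sterols, in both genotypes. Of the 17 sterol synthesis enzymes, 9 rose and 1 fell with peptide in null cells, and 8 rose and 2 fell in wild type cells (limma, 4 group means over all 12 arrays, Benjamini-Hochberg adjusted p under 0.05 over 45037 probe sets). Of all 18193 genes, 12.5% rose and 19% fell in null cells, and 15.1% rose and 20.4% fell in wild type cells. Among the 10742 genes with a group mean log2 signal of at least 5, the shares were 20.3% and 31% in null cells, and 23.9% and 33.6% in wild type cells. The median log2 change of the 17 enzymes was 0.56 in null cells and 0.45 in wild type cells, where the median over those 10742 genes was -0.08 and -0.06. The same 8 enzymes rose in both genotypes, and none was called in opposite directions.

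On the brightest probe sets, the rise of Cyp51, the lanosterol demethylase, was larger than that of any other member in both genotypes. Its log2 signal was 9.77, 9.03 and 9.47 in null cells with peptide and 7.45, 7.25 and 7.07 in null cells without. In wild type cells it was 9.52, 9.11 and 9.46 with peptide and 6.85, 6.31 and 6.88 without. All stimulated arrays lay above all unstimulated ones, with a log2 change of 2.17 ± 0.20 (SE), 4.51-fold, adjusted p = 4.8e-06, in null cells and a log2 change of 2.68 ± 0.20 (SE), 6.43-fold, adjusted p = 4.9e-07, in wild type cells. Idi1, the isomerase that makes dimethylallyl diphosphate, had a log2 signal of 11.00, 10.59 and 10.79 with peptide and 8.60, 9.03 and 8.62 without in null cells. The wild type values were 10.86, 10.52 and 10.88 with peptide and 8.50, 7.86 and 8.29 without, so that here too the groups were well apart. The change was 2.04 ± 0.18 in null cells (adjusted p = 2.9e-06) and 2.54 ± 0.18 in wild type cells (adjusted p = 2.9e-07). Sqle, the squalene epoxidase and a controlled step of the pathway, had 9.92, 9.30 and 9.64 with peptide against 8.02, 7.86 and 7.44 without in null cells. In wild type cells Sqle had 9.57, 9.04 and 9.39 with peptide against 7.23, 6.65 and 7.47 without. Sqle rose 3.61-fold in null cells and 4.65-fold in wild type cells (adjusted p = 5.2e-05 and 7.5e-06). With the mean of all probe sets of a gene the order turned, and Idi1 stood first: Cyp51 changed by 1.73 in null cells and 1.99 in wild type cells, and Idi1 by 2.19 in null cells and 2.74 in wild type cells.

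The other enzymes that rose in both genotypes sit between these steps or after them. Hsd17b7, the ketosterol reductase, rose by 1.55 log2 units in null cells and 1.92 in wild type cells, and its next 2 probe sets by brightness rose as well (1.78 and 1.42 in null cells, 1.72 and 1.51 in wild type cells). Lss, which closes squalene epoxide to lanosterol, rose by 1.49 in null cells and 1.44 in wild type cells. Msmo1, the methylsterol oxidase, rose by 0.87 and 0.99, in the same order. Fdps, which makes farnesyl diphosphate, rose by 0.56 in null cells and 0.53 in wild type cells, and the wild type call was lost without wild type mouse 1 (adjusted p = 0.051). The changes within single mice ran the same way in 6 of 6 mice for each of these genes. Sc5d, the sterol desaturase, rose by 0.70 and 0.68 on its brightest probe set, but its second brightest one changed by -0.24 in null cells (adjusted p = 0.45) and by -0.65 in wild type cells (adjusted p = 0.021). With the mean of all probe sets of a gene in place of the brightest, Sc5d lost its call in both genotypes (log2 change 0.09 in null cells and 0.0077 in wild type cells). The null call of Sc5d was also lost without null mouse 3 and the wild type call without wild type mouse 1 (adjusted p = 0.071 and 0.076).

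Hmgcs1, the synthase that feeds the mevalonate pathway, was read from its brightest probe set and on it was called in null cells only. Its log2 signal was 11.59, 10.76 and 11.39 with peptide and 10.50, 10.21 and 10.51 without in null cells, and 10.85, 10.39 and 10.64 with peptide and 10.21, 10.10 and 10.22 without in wild type cells. The stimulated arrays lay above the unstimulated ones in both genotypes. Its change was 0.84 ± 0.18 in null cells (adjusted p = 0.0043) and 0.45 ± 0.18 in wild type cells (adjusted p = 0.095, or 0.013 with the mouse as a block and 0.013 without null mouse 2). The difference between these changes was 0.39 with a 95% confidence interval of -0.18 to 0.95, adjusted p = 0.81. In wild type cells, the Hmgcs1 probe sets averaging 10.32 and 8.75 were called higher (0.58 and 0.61, adjusted p = 0.048 and 0.0498). Those averaging 10.5 and 4.56 were not (0.50 and 0.23, adjusted p = 0.068 and 0.72).

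**Figure D1:**
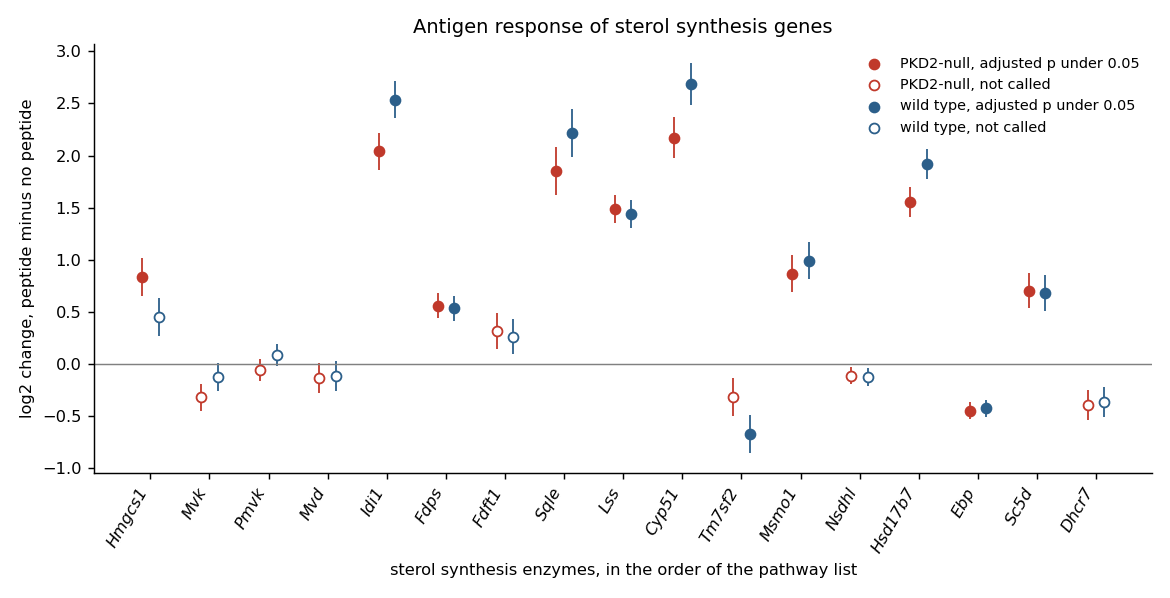
Log2 change with peptide (vertical axis) of the 17 sterol synthesis enzymes in pathway order, with PKD2 null cells left of wild type cells for each gene; points are fitted changes (3 arrays per group), bars are ± SE, and filled points passed the adjusted threshold. Idi1, Sqle, Lss, Cyp51 and Hsd17b7 stand highest in both genotypes, between 1.44 and 2.68, while the mevalonate kinases and Ebp lie near or below 0.

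The other sterol enzymes were called lower or not at all. Mvk, Pmvk and Mvd, which turn mevalonate into isopentenyl diphosphate, changed by -0.32, -0.06 and -0.14 log2 units in null cells and by -0.12, 0.08 and -0.12 in wild type cells, and none of these passed the test (Mvk did in null cells without null mouse 1, adjusted p = 0.047). Fdft1, the squalene synthase that stands between Fdps and Sqle, had changes of 0.32 (95% confidence interval -0.05 to 0.68) in null cells and 0.26 (-0.11 to 0.63) in wild type cells, without a call. Ebp, the sterol isomerase, fell in both genotypes. Its signal was 9.29, 9.28 and 9.19 with peptide against 9.84, 9.62 and 9.66 without in null cells, and 9.12, 9.26 and 9.25 with peptide against 9.60, 9.67 and 9.64 without in wild type cells. The groups did not overlap, and the change was -0.45 ± 0.082 in null cells (adjusted p = 0.0012) and -0.43 ± 0.082 in wild type cells (adjusted p = 0.0013). Tm7sf2, a sterol reductase, had 5.05, 4.97 and 5.36 with peptide against 5.66, 5.21 and 5.45 without in null cells, and 4.84, 5.30 and 4.61 with peptide against 5.32, 5.71 and 5.74 without in wild type cells. Its group means lay between 4.92 and 5.59, and its fall passed the threshold in wild type cells alone (-0.67, adjusted p = 0.014), but without wild type mouse 3 its change was -0.45 (adjusted p = 0.17). In null cells Tm7sf2 changed by -0.32, without a call, and the difference of the changes was 0.35 (adjusted p = 0.83). Dhcr7, which makes cholesterol from 7-dehydrocholesterol, changed by -0.39 in null cells and -0.36 in wild type cells (adjusted p = 0.069 and 0.083; in null cells 0.047 without null mouse 1 and 0.039 without wild type mouse 1), and Nsdhl, the sterol dehydrogenase, by -0.11 and -0.13.

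The promoters of these enzymes share a feature that the choice of genes did not use. RefSeq promoter windows (GRCm38.p6, 250 bases before to 50 bases after the start) matched 29 of the 37 genes, 14 of them sterol synthesis enzymes. The CCAAT box, the site of NF-Y, which is known to act beside SREBP, was searched on both strands and stood in a window of 14 of those 14 enzyme genes, against 41.1% of 27025 genes with a window and 42.4% of the 8733 that had a group mean log2 signal of at least 5. GGGCGG, the core of SP1 sites, stood in 13 of the 14, against 38.2% of all genes and 68.4% of those 8733. The sterol response element in its TCACNCCAC form was found in Hmgcs1 alone, and in 1.44% of all genes. The E box CACGTG stood in 3 of the 14 enzyme genes, against 8.09% of all genes. For the DR4 element of LXR only 1 strict form was searched: GGTCA, any 4 bases, then AGGTCA. It stood in none of the 29 members, against 0.0222% of all genes. Looser forms were not searched, so the windows cannot be said to lack an LXR element. The CCAAT letters did not follow the direction of change: 9 of 10 members that rose in both genotypes and 5 of 6 that fell in both held them, as did 8 of 12 other measured members. A GC content of 45.3% to 71% in the enzyme windows (median 61.3%) compared with a median of 52.7% over all windows and 60.7% over the windows of those 8733 genes.

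The windows of 5 genes are shown because they belong to members that rose with peptide in at least 1 genotype, and that of Abca1 because it fell and holds no CCAAT box. Capitals mark CCAAT on either strand and the TCACNCCAC match in Hmgcs1, which spans positions -137 to -129 from the start. The windows are Cyp51 at chr5:4104648-4104947 (minus strand), Idi1 at chr13:8885356-8885655 (plus strand), Hsd17b7 at chr1:169969156-169969455 (minus strand), Hmgcs1 at chr13:119690101-119690400 (plus strand), Fasn at chr11:120824498-120824797 (minus strand) and Abca1 at chr4:53159846-53160145 (minus strand), each written 5′ to 3′ on the strand of its gene.
Cyp51: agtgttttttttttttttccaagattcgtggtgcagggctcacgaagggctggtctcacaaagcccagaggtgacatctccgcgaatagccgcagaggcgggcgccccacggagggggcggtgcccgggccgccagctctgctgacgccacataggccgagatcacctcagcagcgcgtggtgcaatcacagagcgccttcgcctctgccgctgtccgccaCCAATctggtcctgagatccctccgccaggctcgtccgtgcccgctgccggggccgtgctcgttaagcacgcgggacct
Idi1: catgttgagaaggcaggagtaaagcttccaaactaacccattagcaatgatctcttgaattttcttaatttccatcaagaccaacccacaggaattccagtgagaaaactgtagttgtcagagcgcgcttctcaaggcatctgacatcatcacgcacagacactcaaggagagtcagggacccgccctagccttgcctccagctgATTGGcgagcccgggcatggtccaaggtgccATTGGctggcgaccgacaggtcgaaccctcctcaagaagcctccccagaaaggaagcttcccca
Hsd17b7: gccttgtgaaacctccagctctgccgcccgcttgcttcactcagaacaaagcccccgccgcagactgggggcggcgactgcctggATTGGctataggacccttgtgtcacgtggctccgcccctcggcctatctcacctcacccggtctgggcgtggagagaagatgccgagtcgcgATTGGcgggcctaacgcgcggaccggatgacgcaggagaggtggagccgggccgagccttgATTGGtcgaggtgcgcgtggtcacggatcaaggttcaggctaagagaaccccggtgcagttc
Hmgcs1: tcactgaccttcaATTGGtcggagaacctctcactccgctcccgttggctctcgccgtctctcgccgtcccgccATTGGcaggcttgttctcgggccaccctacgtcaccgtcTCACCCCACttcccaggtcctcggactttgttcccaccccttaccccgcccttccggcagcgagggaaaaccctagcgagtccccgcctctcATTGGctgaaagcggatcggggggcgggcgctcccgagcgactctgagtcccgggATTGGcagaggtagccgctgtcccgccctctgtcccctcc
Fasn: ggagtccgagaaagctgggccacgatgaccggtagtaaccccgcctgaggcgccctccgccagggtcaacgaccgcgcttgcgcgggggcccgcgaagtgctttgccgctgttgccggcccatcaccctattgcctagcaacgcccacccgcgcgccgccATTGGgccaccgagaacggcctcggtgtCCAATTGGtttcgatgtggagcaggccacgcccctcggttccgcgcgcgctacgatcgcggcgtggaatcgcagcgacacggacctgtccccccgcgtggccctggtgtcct
Abca1: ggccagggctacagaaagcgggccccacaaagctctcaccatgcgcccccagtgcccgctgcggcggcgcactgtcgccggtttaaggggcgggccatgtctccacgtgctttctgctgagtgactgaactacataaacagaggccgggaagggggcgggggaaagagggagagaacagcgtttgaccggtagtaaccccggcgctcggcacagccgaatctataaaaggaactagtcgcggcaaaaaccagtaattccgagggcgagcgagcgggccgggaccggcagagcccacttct
The number of CCAAT boxes was 1 in Cyp51, 2 in Idi1, 3 in Hsd17b7, 4 in Hmgcs1, 3 in Fasn and 0 in Abca1. A match is a description of the letters, and binding was not measured.

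Among the genes that control sterols, Insig1 rose and Srebf1 fell in both genotypes. Of 6 control genes, 4 rose and 2 fell with peptide in null cells, and 3 rose and 2 fell in wild type cells. Of the 10742 brighter genes 20.3% rose and 31% fell in null cells and 23.9% rose and 33.6% fell in wild type cells, so the 2 falls among 6 lie near those shares. Insig1, which retains SCAP in the endoplasmic reticulum and is itself an SREBP target, had 9.62, 9.03 and 9.40 with peptide against 8.04, 7.92 and 7.99 without in null cells. In wild type cells it had 9.42, 8.98 and 9.26 with peptide against 7.70, 7.38 and 7.52 without. The groups did not overlap in either genotype, with a log2 change of 1.37 ± 0.15 (SE), 2.58-fold, adjusted p = 2.1e-05, in null cells and a log2 change of 1.69 ± 0.15 (SE), 3.23-fold, adjusted p = 2.3e-06, in wild type cells. Insig2, its paralogue, had 8.13, 7.92 and 8.05 with peptide against 8.39, 8.24 and 8.30 without in null cells, and 7.94, 7.84 and 7.84 with peptide against 8.26, 8.42 and 8.50 without in wild type cells. Insig2 moved the other way to Insig1, by -0.27 ± 0.09 in null cells (adjusted p = 0.042) and -0.52 ± 0.09 in wild type cells (adjusted p = 0.00059). The null call of Insig2 was lost in 7 of 11 alternatives, among them those without any 1 of the null mice and without wild type mouse 2 or 3.

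Srebf1 encodes SREBP1 and is a target of LXR. It had 9.79, 9.45 and 9.68 with peptide against 10.28, 9.96 and 10.30 without in null cells, and 9.42, 9.21 and 9.23 with peptide against 10.19, 10.30 and 10.09 without in wild type cells. It was lower with peptide in every mouse, with a change of -0.54 ± 0.12 (adjusted p = 0.0045) in null cells and -0.90 ± 0.12 (adjusted p = 6.3e-05) in wild type cells. Srebf2, which encodes SREBP2, had 9.71, 9.25 and 9.49 with peptide against 9.04, 9.03 and 9.09 without in null cells, and 9.30, 8.93 and 9.08 with peptide against 8.78, 8.74 and 8.77 without in wild type cells. These groups did not overlap, and Srebf2 rose by 0.43 ± 0.12 in null cells (adjusted p = 0.017) and 0.34 ± 0.12 in wild type cells (adjusted p = 0.046). The wild type call of Srebf2 was lost without any 1 of the wild type mice (adjusted p = 0.25, 0.062 and 0.14 for mice 1, 2 and 3) or null mouse 3 (0.078) and with the mean of all probe sets of a gene (0.058), and the null call without null mouse 1 or 3 (0.16 and 0.09). Stard4, a carrier that moves sterol between membranes, had 8.63, 8.46 and 8.73 with peptide against 7.88, 8.18 and 8.11 without in null cells, and 8.31, 7.82 and 8.12 with peptide against 7.62, 7.46 and 7.80 without in wild type cells. It rose by 0.55 in null cells and 0.45 in wild type cells (adjusted p = 0.0087 and 0.024), and lost its null call without null mouse 1 or 3 (adjusted p = 0.1 and 0.073). The wild type call of Stard4 was lost without wild type mouse 1 and with the mean of all probe sets of a gene (adjusted p = 0.19 and 0.082). Scap rose in null cells (0.33, adjusted p = 0.024), a call lost without any 1 null mouse, and had 0.18 in wild type cells (adjusted p = 0.21).

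Fatty acid genes split: transcripts of Fasn and Acaca rose, while those of the desaturases Scd1 and Scd2 and the acetate enzyme Acss2 fell, in both genotypes. Of 9 genes, 2 rose and 4 fell with peptide in each genotype, and 2 rises and 3 falls were shared. Against 20.3% and 31% of the brighter genes in null cells and 23.9% and 33.6% in wild type cells, these counts do not set the 9 genes apart. Fasn, the fatty acid synthase, had 9.93, 9.70 and 9.95 with peptide against 7.95, 8.19 and 8.13 without in null cells, and 9.95, 9.59 and 9.55 with peptide against 7.99, 7.95 and 8.00 without in wild type cells. The groups were apart in both genotypes, with changes of 1.77 ± 0.12 in null cells (adjusted p = 3.1e-07) and 1.72 ± 0.12 in wild type cells (adjusted p = 2.1e-07). Acaca, the acetyl-CoA carboxylase that makes malonyl-CoA, had 8.45, 8.50 and 8.31 with peptide against 7.73, 7.79 and 7.64 without in null cells, and 8.44, 8.20 and 8.37 with peptide against 7.51, 7.75 and 7.74 without in wild type cells. It rose by 0.70 in null cells and 0.67 in wild type cells (adjusted p = 0.00014 and 0.00015). Acly, which supplies acetyl-CoA from citrate, changed by -0.24 and -0.19, below the threshold in both.

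Acss2, which activates acetate to acetyl-CoA, had one of the larger falls among the 36 genes. It had 6.74, 5.91 and 6.40 with peptide against 8.84, 7.28 and 8.55 without in null cells, and 6.43, 6.47 and 6.69 with peptide against 8.31, 8.33 and 8.39 without in wild type cells. Null mouse 2 lay lowest in both null groups, yet its change was in the same direction as the others, and the log2 change was -1.88 ± 0.32 in null cells (adjusted p = 0.00062) and -1.81 ± 0.32 in wild type cells (adjusted p = 0.00063). With the mean of all probe sets of a gene its changes were -1.52 in null cells and -1.38 in wild type cells, still called and smaller than those of Abcg1 (-1.62 in null cells and -1.73 in wild type cells). Scd1 and Scd2, the stearoyl-CoA desaturases, fell in both genotypes. Scd2 had 7.67, 7.87 and 7.21 with peptide against 8.46, 8.88 and 8.52 without in null cells, and 6.73, 6.39 and 6.75 with peptide against 8.33, 7.94 and 8.15 without in wild type cells. The changes were -1.04 ± 0.18 in null cells and -1.51 ± 0.18 in wild type cells (adjusted p = 0.00066 and 2.3e-05). Scd1 changed by -0.75 in null cells (adjusted p = 0.033, with overlapping groups, and with the call lost in 6 of 11 alternatives, among them those without null mouse 1 or 3 or wild type mouse 2 or 3) and by -1.13 in wild type cells (adjusted p = 0.0023).

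Elovl6, an elongase of long-chain fatty acids, had 6.43, 6.10 and 5.92 with peptide against 7.87, 6.95 and 7.68 without in null cells, and 6.12, 6.41 and 6.97 with peptide against 7.08, 6.98 and 7.61 without in wild type cells. It fell in null cells (-1.35 ± 0.27, adjusted p = 0.0019). In wild type cells its change was -0.73 ± 0.27 (adjusted p = 0.059, or 0.0048 with the mouse as a block and 0.034 without null mouse 2). Fads1, a desaturase of polyunsaturated fatty acids, fell in wild type cells (-0.68, adjusted p = 0.004, and 0.0503 without wild type mouse 2), and had -0.39 in null cells (adjusted p = 0.086, or 0.022 with the mouse as a block). Fads2, the partner desaturase, had a log2 signal under 5 in all 4 group means and changed by 0.05 in null cells and 0.00 in wild type cells. For Elovl6 and Fads1 the test of the difference between genotypes gave adjusted p = 0.78 and 0.83, so that no difference in response was shown.

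The measured LXR targets among the efflux genes all fell with peptide. Of 4 genes measured, 3 fell in each genotype and none rose, where 31% of the brighter genes fell in null cells and 33.6% in wild type cells. Abcg1, a cholesterol efflux pump, had 8.49, 8.88 and 8.33 with peptide against 10.15, 10.18 and 10.36 without in null cells, and 8.77, 8.50 and 8.69 with peptide against 10.72, 10.23 and 10.27 without in wild type cells. The groups were more than 1 log2 unit apart, with a 3.17-fold fall in null cells and a 3.37-fold fall in wild type cells (adjusted p = 5.9e-06 and 2.4e-06). Mylip, the ubiquitin ligase that marks lipoprotein receptors for breakdown, had 9.56, 10.00 and 9.47 with peptide against 10.86, 11.01 and 10.89 without in null cells. In wild type cells Mylip had 9.06, 9.07 and 9.33 with peptide against 10.90, 10.90 and 10.98 without. Its unstimulated values lay close together in both genotypes, and it fell, with changes of -1.24 ± 0.13 in null cells and -1.77 ± 0.13 in wild type cells (adjusted p = 1.2e-05 and 3.9e-07). Abca1, the other efflux pump, had 9.31, 9.62 and 9.01 with peptide against 10.17, 10.44 and 9.98 without in null cells, and 8.21, 8.36 and 8.36 with peptide against 9.59, 9.66 and 9.63 without in wild type cells. It fell 1.84-fold in null cells and 2.49-fold in wild type cells (adjusted p = 0.00054 and 1.5e-05). Nr1h3, which encodes LXR alpha, had group means of 5.21 to 5.38 and changed by 0.01 in null cells and -0.17 in wild type cells.

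B cell and plasma cell markers moved in the same direction as these falls. The mean log2 level of the B cell markers was 8.67 with peptide against 9.27 without in null cells, and 8.04 with peptide against 8.60 without in wild type cells; 5 of 9 fell in null cells and 6 of 9 in wild type cells, where Fcer2a rose. Plasma cell markers averaged 8.75 with peptide against 9.59 without in null cells, and 7.76 with peptide against 8.58 without in wild type cells, and 2 of 3 fell in each genotype. The part of both lists in the falls of Abca1, Abcg1, Mylip, Scd1 and Scd2 was not tested. CD8 T cell markers averaged 11.02 with peptide against 11.05 without in null cells, and 10.93 with peptide against 11.09 without in wild type cells, but single markers moved both ways: of 8, 1 rose and 2 fell in null cells and 2 rose and 3 fell in wild type cells. Among them Cd8b1 changed by -1.11 in null cells and -1.38 in wild type cells, and Cd5 by 1.69 in null cells and 1.88 in wild type cells. Of the brighter genes 20.3% rose and 31% fell in null cells, and 23.9% rose and 33.6% fell in wild type cells. The CD8 counts lie near those shares, and the B cell and plasma cell falls lie above them.

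**Figure D2:**
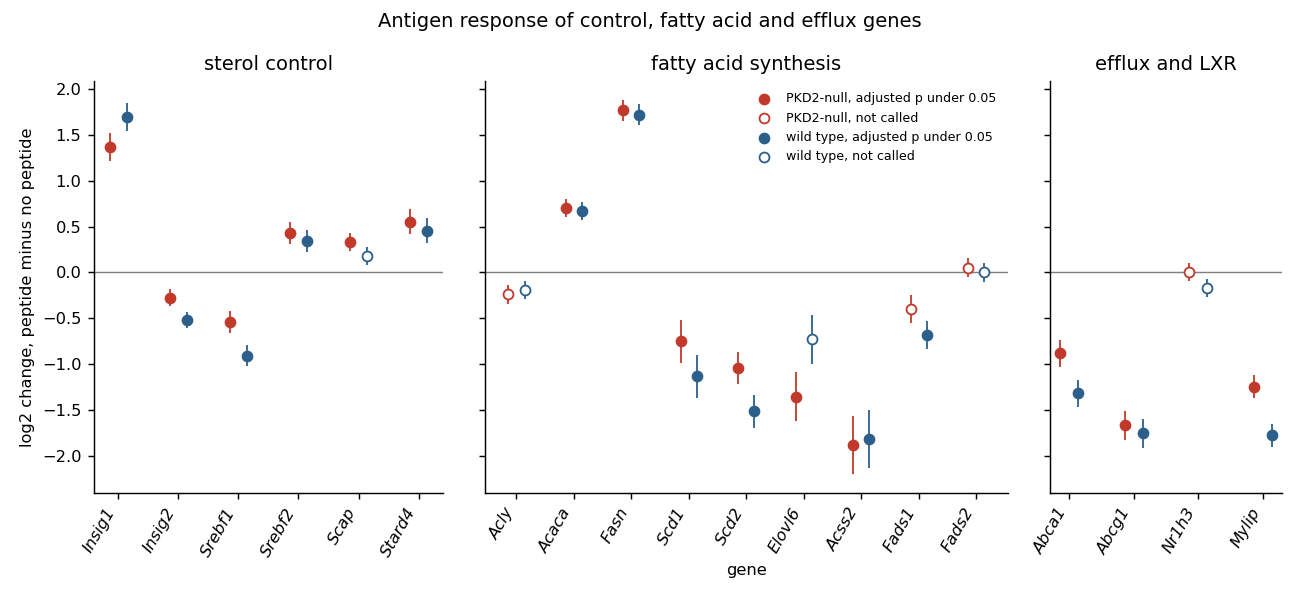
Log2 change with peptide (vertical axis) of the control, fatty acid and efflux genes, with PKD2 null cells left of wild type cells for each gene; points are fitted changes (3 arrays per group), bars are ± SE, and filled points passed the adjusted threshold. Insig1 and Fasn stand above 1 in both genotypes, and Scd2, Acss2, Abcg1 and Mylip below -1.

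**Figure D3:**
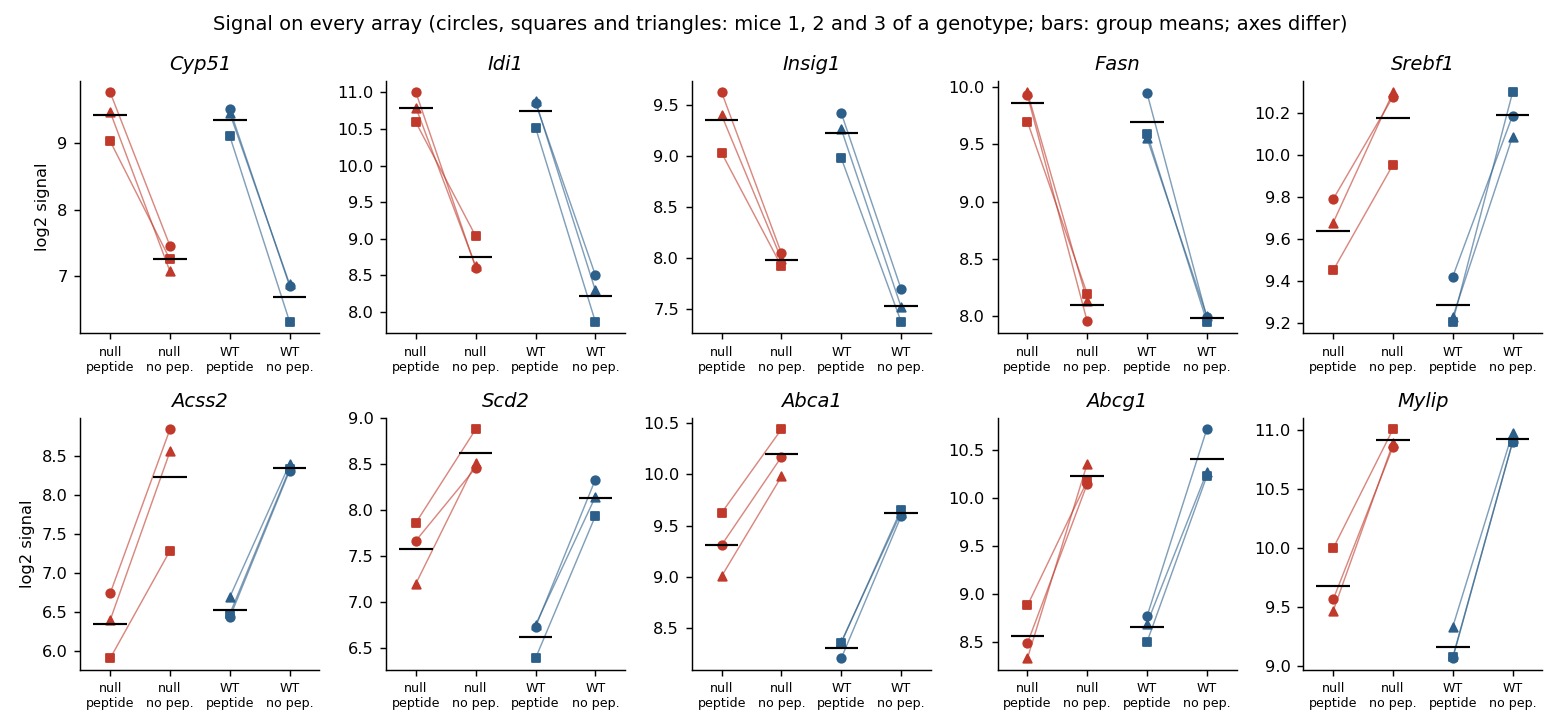
Log2 signal on each of the 12 arrays for 10 genes, in the order null with peptide, null without, wild type with peptide, wild type without; lines join the arrays of 1 mouse, circles, squares and triangles are mice 1, 2 and 3 of a genotype, bars are group means, and the axes differ. In each panel the arrays with and without peptide are apart within a genotype, and Scd2 and Abca1 are higher in null cells with peptide than in wild type cells with peptide.

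Without peptide, no member differed between null and wild type cells at the adjusted threshold. Of all 18193 genes, 0.044% were called in either direction. At an unadjusted p under 0.05, 15 of the 36 genes were higher in null cells and 1, Fads2, was lower, where 6.8% of all genes and 9.98% of the 10742 brighter ones were higher and 3.79% and 3.45% were lower. The sterol synthesis enzymes made up most of this: 16 of 17 had a positive difference, against 52.1% of all genes and 60.4% of the brighter ones, 9 had an unadjusted p under 0.05, and for 8 every null array lay above every wild type array, against 9.59% and 13.5%. Their median log2 difference was 0.33, against 0.04 over the brighter genes. The mean log2 signal of the 17 enzymes on single arrays was 7.89, 7.86 and 7.69 in null cells without peptide and 7.51, 7.40 and 7.58 in wild type cells without peptide, so that the genotypes did not overlap. Genes of 1 pathway measured in the same 6 mice are not independent, so these counts are a description and carry no test.

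The smallest p-values without peptide belonged to Abca1, Hsd17b7 and Msmo1. Abca1 was higher in null cells by 0.57 ± 0.15 (SE), unadjusted p = 0.002, adjusted p = 0.24. For Hsd17b7 the log2 signal was 6.87, 6.88 and 6.56 in null cells and 6.21, 6.30 and 6.29 in wild type cells, a difference of 0.50 ± 0.14, adjusted p = 0.3. Msmo1 had 8.51, 8.55 and 8.31 in null cells and 8.01, 7.73 and 7.81 in wild type cells, a difference of 0.61 ± 0.18, adjusted p = 0.3. None of these groups overlapped, and none of the differences passed the adjusted threshold. Sqle, Cyp51 and Idi1, which rose with peptide in both genotypes, had differences of 0.66, 0.58 and 0.53 without peptide (adjusted p = 0.41, 0.41 and 0.4). With peptide the same 3 enzymes differed by 0.29, 0.06 and 0.04 (adjusted p = 0.59, 0.91 and 0.94).

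With peptide, Abca1 and Scd2 were higher in null than in wild type cells, as 2 of 36 members, where 1.09% of all genes and 1.85% of the brighter ones were called higher. Abca1 had 9.31, 9.62 and 9.01 in null cells with peptide and 8.21, 8.36 and 8.36 in wild type cells with peptide. The lowest null array lay above the highest wild type array, and the difference was 1.01 ± 0.15 (SE), 2.01-fold, adjusted p = 0.0098. Scd2 had 7.67, 7.87 and 7.21 in null cells and 6.73, 6.39 and 6.75 in wild type cells, likewise apart, with a difference of 0.95 ± 0.18, 1.94-fold, adjusted p = 0.028. Both calls rested on the choice of probe set and on single mice. With the mean of all probe sets of a gene, neither was called: Abca1 had 0.53 (adjusted p = 0.071) and Scd2 0.35 (adjusted p = 0.13), and the other probe sets of both genes averaged 5.14 or less. The call of Abca1 was lost without null mouse 1 or wild type mouse 3 (adjusted p = 0.089 and 0.057). That of Scd2 was lost without null mouse 1 or any 1 wild type mouse (adjusted p = 0.15 for the first, and 0.051 to 0.12 for the wild type mice). Without null mouse 2, 5 members were called higher: Abca1 and Scd2 with Hmgcs1, Lss and Scd1 (differences of 0.86, 0.54 and 0.69).

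B cell markers differed in the same direction between the genotypes. With peptide their level was 8.51, 9.08 and 8.41 in null cells and 7.92, 8.19 and 8.00 in wild type cells, and without peptide it was 9.10, 9.70 and 9.02 in null cells and 8.53, 8.67 and 8.59 in wild type cells. The genotypes did not overlap in either condition, and 2 of the 9 markers were called higher in null cells with peptide. Null mouse 2 had the highest B cell marker level of the 6 mice in both conditions, and also the highest Abca1, Scd1, Scd2 and Mylip signals among the arrays with peptide. In both conditions null mouse 2 also had the highest myeloid marker level (7.49 with peptide, 7.78 without) and the lowest CD8 T cell marker level (10.73 and 10.82). Myeloid markers without peptide stood at 7.24 to 7.78 in null cells and 6.82 to 7.23 in wild type cells. With peptide the genotypes overlapped, at 6.88 to 7.49 in null cells and 6.89 to 7.04 in wild type cells. Plasma cell markers averaged 8.75 in null cells with peptide against 7.76 in wild type cells with peptide, and 9.59 in null cells without peptide against 8.58 in wild type cells without peptide, and salivary gland markers averaged 5.30 in null cells with peptide against 7.11 in wild type cells with peptide. Erythroid markers (3 measured, 1 averaging over 5) were lower in null cells, with the genotypes apart in both conditions. With peptide their level was 3.96 to 4.22 in null cells and 4.69 to 5.48 in wild type cells. Without peptide it was 3.94 to 4.30 in null cells and 4.63 to 5.78 in wild type cells. CD8 T cell markers averaged 11.02 in null cells with peptide and 10.93 in wild type cells with peptide. The part of these cells in the genotype differences was not tested. Without null mouse 2, the remaining null mice had B cell marker levels of 8.51 and 8.41 with peptide, and the Abca1 difference was 0.85 (adjusted p = 0.0059).

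**Figure D4:**
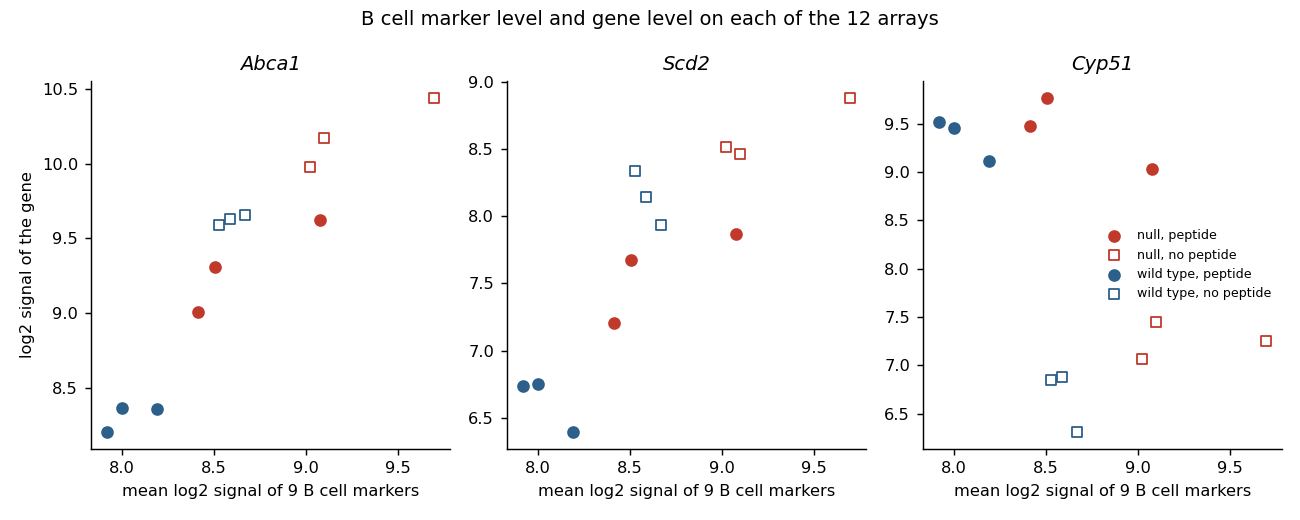
Log2 signal of Abca1, Scd2 and Cyp51 (vertical axes) against the mean log2 level of 9 B cell markers (horizontal axis) on each of the 12 arrays, with null arrays in red, wild type arrays in blue, filled circles with peptide and open squares without. The null arrays lie to the right of the wild type arrays of the same condition in every panel.

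Scd1, Stard4 and Mylip were also higher in null cells with peptide without passing the threshold. Scd1 had 10.66, 11.36 and 10.71 in null cells and 10.16, 9.82 and 10.01 in wild type cells, a difference of 0.91 ± 0.23 (adjusted p = 0.092). Stard4 differed by 0.53 ± 0.14 (adjusted p = 0.096) and Mylip by 0.52 ± 0.13 (adjusted p = 0.081). In all, 31 of 36 members had a positive difference, against 43.5% of all genes and 53.7% of the brighter ones, and 13 were higher at an unadjusted p under 0.05, against 8.95% and 14.7%. For 9 the groups were apart with null cells higher, against 10.9% and 17.1%. Of the 17 sterol synthesis enzymes, 16 had a positive difference, 6 had an unadjusted p under 0.05, and 3 had groups apart. Their mean signal on single arrays was 8.62, 8.23 and 8.46 in null cells with peptide and 8.26, 8.10 and 8.24 in wild type cells with peptide, and here null mouse 2 fell among the wild type mice.

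**Figure D5:**
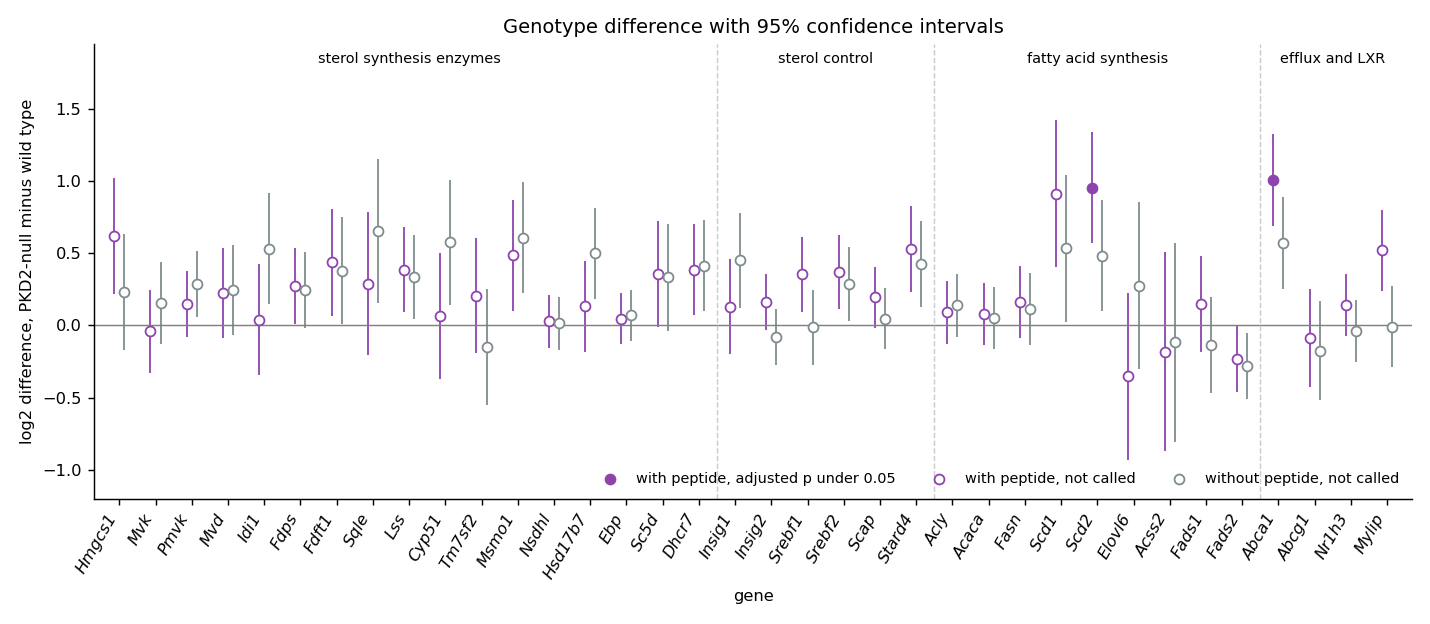
Log2 difference, PKD2 null minus wild type (vertical axis), of the 36 genes with and without peptide, with 95% confidence intervals from the limma fit and the values with peptide left of those without. Most points lie above 0, and Abca1 and Scd2 with peptide are the only 2 that passed the adjusted threshold.

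The response to antigen itself was not shown to differ between the genotypes for any member. In the test of the difference between the changes, 0 of 36 members passed the adjusted threshold in limma, where 0.0055% of all genes did, and 2 had an unadjusted p under 0.05, where 7.71% of all genes and 10.4% of the brighter ones did. These were Mylip and Srebf1, and a share of this size is no more than the background. Mylip changed by -1.29, -1.02 and -1.42 in null mice 1, 2 and 3 and by -1.84, -1.83 and -1.66 in wild type mice 1, 2 and 3. Every null mouse had a smaller fall than every wild type mouse, and the difference was 0.53 ± 0.18 (95% confidence interval 0.13 to 0.92, unadjusted p = 0.013, adjusted p = 0.59). Srebf1 changed by -0.49, -0.50 and -0.62 in null mice and by -0.76, -1.09 and -0.86 in wild type mice, in the same order. Its difference was 0.37 (95% confidence interval 5e-04 to 0.73, unadjusted p = 0.0497, adjusted p = 0.7), and for Abca1 it was 0.43 (-0.02 to 0.88, adjusted p = 0.72). Cyp51 had -0.51 (-1.13 to 0.10), Idi1 -0.49 (-1.04 to 0.05) and Sqle -0.37 (-1.07 to 0.34), so that intervals of this width still hold responses smaller by more than 1 log2 unit for Cyp51, Idi1 and Sqle in null cells. The mean change of the 17 enzymes was 0.73, 0.37 and 0.77 in null mice 1, 2 and 3, and 0.75, 0.70 and 0.66 in wild type mice 1, 2 and 3, with null mouse 2 lowest of the 6.

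Other genes of the same pathways were taken from lists. Of 20 further sterol genes, 13 were measured, of which 2 rose and 8 fell with peptide in null cells, and 3 rose and 8 fell in wild type cells. Falls outnumbered rises among the brighter genes too (31% against 20.3% in null cells, 33.6% against 23.9% in wild type cells), but 8 falls among 13 lie above those shares. Lbr was among the falls, with -1.09 in null cells and -1.44 in wild type cells (adjusted p = 3.2e-06 and 2e-07). Tmem97, a membrane protein known as an SREBP2 target that binds the cholesterol transporter Npc1, changed by 2.80 log2 units in null cells and 3.84 in wild type cells (adjusted p = 7.5e-08 and 3.4e-09). Its rise was smaller in each null mouse (3.01, 2.60 and 2.80) than in each wild type mouse (3.65, 4.30 and 3.58), with a difference of -1.04 (95% confidence interval -1.51 to -0.57, unadjusted p = 4e-04, adjusted p = 0.38) that did not pass the adjusted threshold. Null minus wild type, Tmem97 differed by -0.50 with peptide and by 0.54 without (adjusted p = 0.15 and 0.28), with the groups apart in both conditions. Genes of cholesterol release from lysosomes fell: Lipa, the acid lipase, changed by -1.76 in null cells and -1.78 in wild type cells, Npc2, a sterol carrier, by -1.36 in null cells and -1.37 in wild type cells, and Npc1 by -1.14 in null cells and -1.62 in wild type cells (adjusted p at most 0.00022 for each). Npc1 was also the 1 gene of these lists called higher in null than in wild type cells with peptide (0.97 ± 0.17 SE, adjusted p = 0.021). Of 18 further fatty acid genes, 6 rose and 6 fell in null cells, and 6 rose and 5 fell in wild type cells. The fatty acid counts lie near the shares over the brighter genes for falls. Of 10 partners and further targets of LXR, 9 were measured, of which 1 rose and 3 fell in null cells, and 1 rose and 4 fell in wild type cells. These falls, too, lie near the shares of 31% and 33.6% over the brighter genes.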

How the data were processed

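Per the submitters' processing notes, the deposited log2 values are Expression Console 1.1 output (Affymetrix software) of the authors, and how they were normalized is not stated there or in the labels. Of 45101 probe sets, 64 controls were left out. The deposited values were fitted as they stood with limma 3.58.1 (R 4.3.3): 4 group means over 12 arrays, 8 residual degrees of freedom, eBayes, two-sided, Benjamini-Hochberg over 45037 probe sets, called at an adjusted p under 0.05, in 5 comparisons. Gene names came from the platform annotation: 34945 probe sets carry 1 symbol and 932 several. Probe sets with suffix _x_at or _s_at (the brightest of Fdft1, Hsd17b7 and Lss) can bind more than 1 transcript. No depth applies to arrays, and 3 per group limit the precision. The fit was tested on simulated data.

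The members and lists were chosen with earlier results of these data known. Values of every array are given for, per class, up to 3 called rises and 3 called falls by average change, members called between genotypes or, where none was, the 3 smallest p-values, and Srebf1, Srebf2, Insig1 and Abca1; array values of Hmgcs1 and Scd1 were added after seeing them. The animal numbers in the labels pair the 2 arrays of a mouse: deviations from group means correlated at 0.116 to 0.577 within a mouse and at most 0.129 with another. Alternatives were the mouse as a block, quantile normalization, a filter on probe sets under a group mean of 5, the mean of all probe sets of a gene, a variance trend with robust fitting, and leaving out each mouse. Promoter windows came from RefSeq.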

Additional observations from a re-analysis of the deposited data

How the results depend on the processing

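Counts of members called were recomputed under 11 alternatives. With peptide in null cells, 15 members rose, with 14 to 15 under the settings that keep all mice and 11 to 15 when 1 mouse was left out; 10 fell, with 8 to 11 in both. In wild type cells 13 rose, with 10 to 14 and, without 1 mouse, 9 to 14; 11 fell, with 11 to 12 and, without 1 mouse, 10 to 12. With the mouse as a replicate block, 15 rose and 11 fell in null cells and 14 rose and 12 fell in wild type cells; the calls it changed were Hmgcs1, Elovl6 and Fads1. Null against wild type with peptide gave 2 calls, 0 with the mean of all probe sets of a gene, and 0 to 5 when 1 mouse was left out: 0 without null mouse 1 or wild type mouse 3, 1 without wild type mouse 1 or 2, and 5 without null mouse 2. That mean adds dimmer probe sets to genes that have more than 1, and the cause of the changes without single mice was not tested. A variance trend added Mylip (adjusted p = 0.041) for 3 calls. Quantile normalization added Acly to the falls (adjusted p = 0.031 in null cells and 0.043 in wild type cells). Between genotypes without peptide and in the difference of the changes, 0 members were called under any of the 11, and no member reversed a called direction. With 3 mice per group, the self-test changed 200 of 45037 simulated probe sets in the wild type peptide comparison. It recovered 19.5% of log2 changes of 0.5 and 94.5% of those of 1. In the data 29% of probe sets were called in that comparison. The adjusted threshold therefore differed from that of the simulation, and these shares do not give the detection rate in the data.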
